A study of Mus musculus with 5 samples.

Results

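Genes of the G2 phase and mitosis were compared between sorted blood stem and progenitor cells of MSI2-inducible mice and of control rtTA mice. The list held 36 genes, chosen by name for their role in G2 and mitosis and not by their values. For each gene, the brightest of the probe sets whose platform annotation gave that symbol alone was used. In this way 35 of the 36 genes had a value, out of 18193 genes in all. Ccnb1, which encodes cyclin B1, had no such probe set and was not analysed here.

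Each sample was 1 Affymetrix mouse array of RNA from bone marrow cells of C57BL/6 mice, 5 arrays in all. The control group was 3 samples labelled control rtTA, where rtTA is the doxycycline-dependent transactivator that switches on inducible transgenes. The other group was 2 samples labelled MSI2-inducible, after the RNA-binding protein Musashi 2. The labels used here do not give age, sex, the transgene's promoter, whether its mice also carry rtTA, whether animals were pooled, or whether and for how long doxycycline was given. Separate mice within a group are not stated either, and p-values therefore reflect only the scatter of these arrays, some of which may be technical. By the sample labels the sorted cells were lineage-low and carried both Sca1 and Kit, but by the series text they carried Kit and lacked Sca1, so which progenitors were sorted is uncertain. In whole-sample RNA, fewer dividing cells and less RNA per dividing cell cannot be told apart.

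Before a cell divides, cyclin A and cyclin B activate the kinase Cdk1, the Cdc25 phosphatases remove its inhibitory phosphates, and Polo-like and Aurora kinases build the spindle. Kinetochores attach chromosomes to spindle microtubules while the spindle checkpoint holds back the anaphase-promoting complex (APC/C), a ubiquitin ligase. Its release destroys cyclin B and securin, and the central spindle then guides cytokinesis. In bone marrow, the most primitive stem cells are mostly quiescent and progenitors divide often, so these transcripts are commonly read as a measure of the dividing share of a sorted population.

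Many of these genes share promoter elements, bound by the factor NF-Y (CCAAT boxes) and by the MuvB complexes (the cell cycle genes homology region, CHR). Promoter sequences, from 250 bases before to 50 bases after the start of transcription, came from RefSeq on GRCm38.p6, and 30 of the 36 genes matched. CCAAT, read on both strands (CCAAT or ATTGG), was present in 22 of the 30 promoters (73.3%) and in 37.9% of the 27025 promoters of all gene types. The CHR letters TTTGAA, read on both strands (TTTGAA or TTCAAA), were present in 21 of 30 (70.0%) and in 18.1% of all promoters. Both were present in 18 of 30 members (60.0%) and in 7.12% of all promoters. Where the table gave several starts for a gene, the first was read. Each motif was counted on its own, and a base could belong to both. A match describes letters and does not show that a factor binds there.

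The promoters of 4 genes are printed 5′ to 3′ on the gene's strand, with matches to either motif in capitals. All 4 were chosen after their values were seen. Kif23 and Cdc25b are among the genes for which the groups' arrays did not overlap. Ttk and Plk1 are shown because control replicate 2 was low for the first and high for the second.
Kif23: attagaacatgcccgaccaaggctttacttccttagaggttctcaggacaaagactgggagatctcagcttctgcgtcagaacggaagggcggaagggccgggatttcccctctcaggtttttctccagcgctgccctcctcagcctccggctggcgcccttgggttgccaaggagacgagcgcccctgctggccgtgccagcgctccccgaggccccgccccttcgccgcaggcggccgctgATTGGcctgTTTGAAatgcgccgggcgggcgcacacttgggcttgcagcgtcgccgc
Cdc25b: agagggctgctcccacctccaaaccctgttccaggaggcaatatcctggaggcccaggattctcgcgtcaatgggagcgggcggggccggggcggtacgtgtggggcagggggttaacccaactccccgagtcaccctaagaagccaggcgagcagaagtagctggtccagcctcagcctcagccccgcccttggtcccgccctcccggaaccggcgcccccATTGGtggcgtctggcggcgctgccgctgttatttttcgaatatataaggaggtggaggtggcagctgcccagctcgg
Ttk: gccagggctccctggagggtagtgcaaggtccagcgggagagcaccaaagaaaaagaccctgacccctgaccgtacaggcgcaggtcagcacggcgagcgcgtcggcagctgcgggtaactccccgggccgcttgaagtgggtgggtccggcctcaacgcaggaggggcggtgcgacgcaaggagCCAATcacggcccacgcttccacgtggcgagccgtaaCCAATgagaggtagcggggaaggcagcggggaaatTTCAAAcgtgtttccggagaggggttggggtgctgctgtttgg
Plk1: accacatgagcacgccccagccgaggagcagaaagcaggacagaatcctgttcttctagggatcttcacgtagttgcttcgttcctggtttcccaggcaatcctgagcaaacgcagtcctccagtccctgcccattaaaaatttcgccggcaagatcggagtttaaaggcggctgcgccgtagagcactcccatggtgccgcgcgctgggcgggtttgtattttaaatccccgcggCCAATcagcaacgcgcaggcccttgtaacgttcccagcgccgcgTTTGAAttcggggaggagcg

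The Kif23 promoter (chr9:61946750-61947049, minus strand) held 1 CCAAT box and 1 CHR, close together near the start. Ttk (chr9:83834439-83834738, plus strand) held 2 CCAAT boxes and 1 CHR. Plk1 (chr7:122159185-122159484, plus strand) held 1 of each. Cdc25b (chr2:131186698-131186997, plus strand) held 1 CCAAT box and no match to TTTGAA, which says only that these letters are not in that window. Ttk and Plk1 each held both motifs, and they were chosen for their opposite places in control replicate 2. Any link between the motifs and that array was not tested.

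Control replicate 2 stood apart from the other control arrays for many of these genes, and MSI2-inducible replicate 1 was far above the other 4 arrays in the medians of neutrophil and erythroid markers. The median difference of the G2 and mitosis genes was -0.11 without the first and -0.10 without the second, and 0 genes passed the limma test in either case.

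As a group the G2 and mitosis genes did not differ between MSI2-inducible and control cells beyond the spread of the arrays. Levels are given as log2 intensity, and a difference is the mean of the MSI2-inducible arrays minus the control mean on that scale. Over the 35 genes the median difference was -0.03, against 0.0019 over all 18193 genes. The difference was positive for 14 genes and negative for 21. In the fit across all genes with limma, 0 of 35 passed an adjusted p of 0.05 in either direction, where 0.0165% of all genes passed as higher and 0.0055% as lower. The lowest limma adjusted p among them was 0.750, for Kif23. At an unadjusted limma p under 0.05, 1 gene was higher (Cdc25b, 2.86% of the 35), where 2.87% of all genes were. At that threshold 2 were lower (Cdc25c and Kif23, 5.71%), where 2.77% of all genes were. MSI2-inducible arrays lay above every control array for 4 genes (11.4% of the 35, against 9.27% of all genes) and below every control array for 5 (14.3%, against 9.39%). These shares rest on few genes and were not tested. At the unadjusted p and by overlap, the shares of higher genes lay near those of all genes. The shares of lower genes were larger than those of all genes, from 2 and 5 genes.

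**Figure D1:**
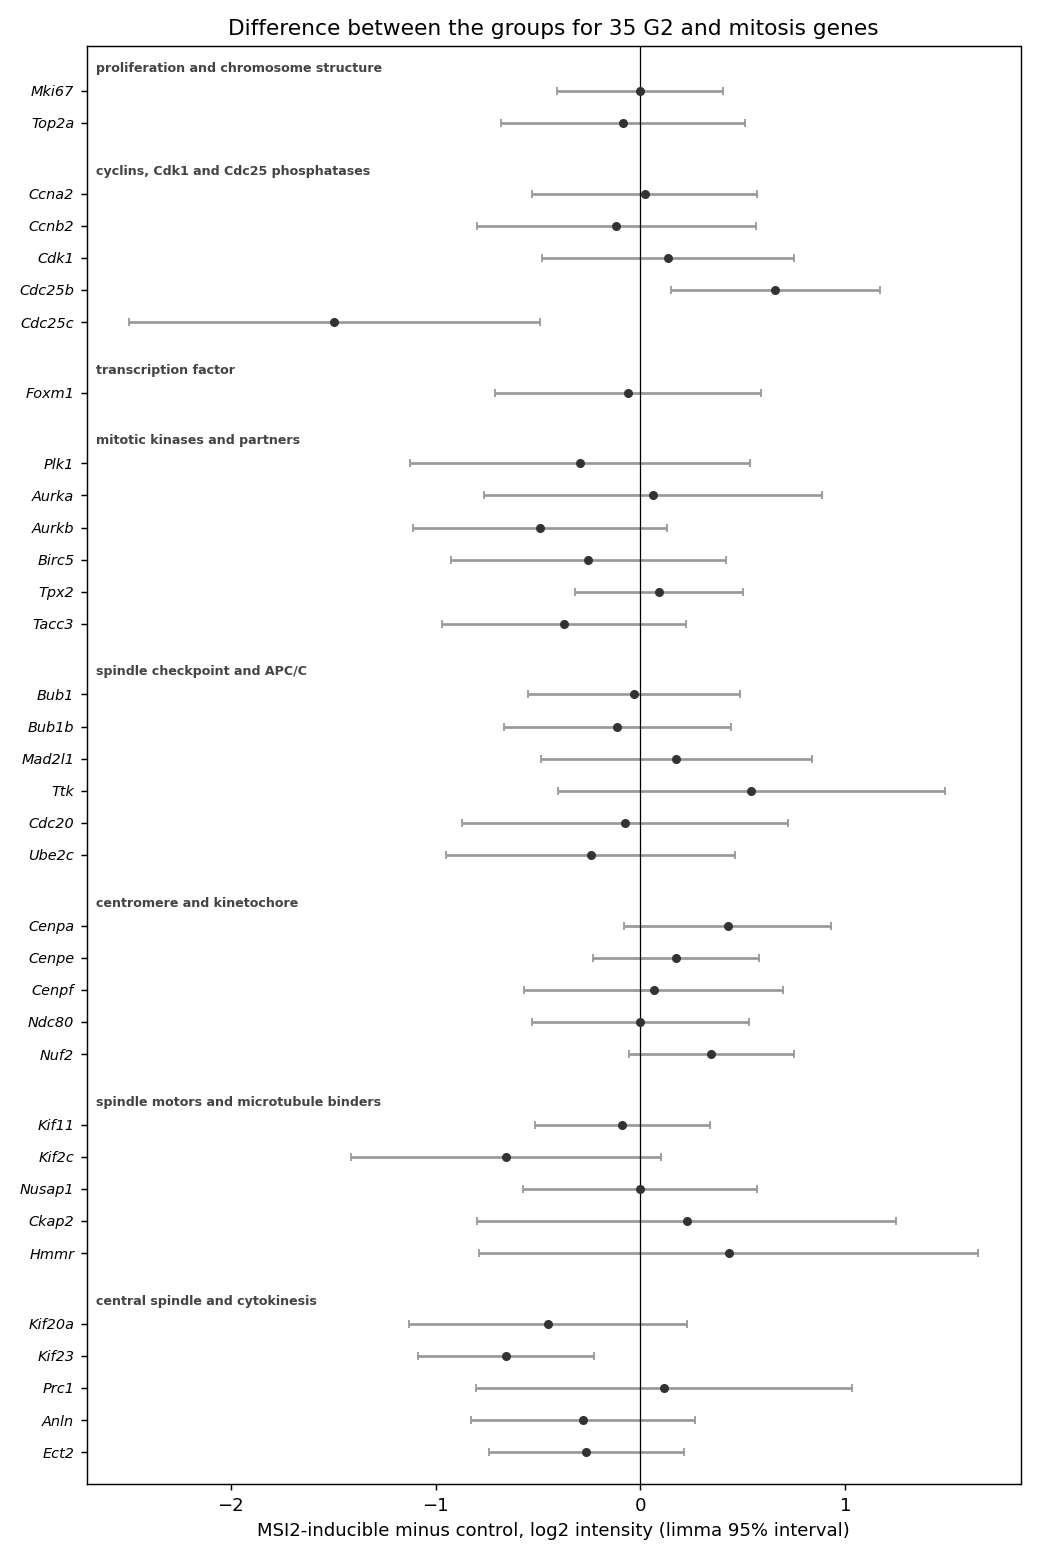
Difference between MSI2-inducible (n = 2) and control rtTA (n = 3) arrays in log2 intensity for 35 genes, grouped by role. Points are differences and bars 95% intervals from limma, before any adjustment for the number of genes. The interval holds 0 for 32 of 35 genes, the exceptions being Cdc25b, Cdc25c and Kif23.

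The arrays left room for sizeable differences in single genes. The 95% limma interval reached from 0.40 to 1.22 to each side of a difference, with a median of 0.61, and held 0 for 32 of 35 genes. Differences lay within 0.2 of 0 for 18 genes and were over 0.5 in size for 5. The median size of a difference was 0.18, the same as over all genes.

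Markers of proliferation and chromosome structure differed little at their brightest probe sets. Mki67, which encodes the Ki-67 protein that coats mitotic chromosomes, had control levels of 12.59, 12.52 and 12.59, in replicate order as for all genes here, and MSI2-inducible levels of 12.64 and 12.48. All 5 arrays lay close together and the groups overlapped. The difference was -0.0021 with a 95% limma interval from -0.41 to 0.40. Top2a, the topoisomerase that untangles sister chromatids, lay at 10.73, 10.42 and 10.75 in control arrays and at 10.25 and 10.85 in MSI2-inducible arrays. Its lowest and its highest value were both MSI2-inducible, and the difference was -0.09 (-0.68 to 0.51). A dimmer Top2a probe set lay at 7.70, 7.01 and 7.43 against 6.91 and 6.68, lower in both MSI2-inducible arrays, with a difference of -0.59 and an unadjusted limma p of 0.0612.

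Among the cyclins and Cdk1, no difference exceeded the spread of the arrays. Ccna2, the cyclin A of S phase and G2, differed by 0.02, with a 95% limma interval from -0.53 to 0.57. Ccnb2, a B-type cyclin, differed by -0.12 (-0.80 to 0.56). Cdk1, the kinase that both cyclins activate, lay at 9.66, 9.04 and 9.64 in control arrays and at 9.68 and 9.48 in MSI2-inducible arrays, a difference of 0.14 (-0.48 to 0.75). Only control replicate 2 stood apart for Cdk1, below the other 4 arrays.

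The Cdc25 phosphatases, which remove the inhibitory phosphates from Cdk1, differed in opposite directions. Cdc25b, the isoform that acts first at the entry into mitosis, lay at 6.49, 6.08 and 6.56 in control arrays and at 7.01 and 7.05 in MSI2-inducible arrays. Both MSI2-inducible arrays were above every control array. The difference was 0.66 (SE 0.21), a 1.58-fold higher intensity, with an unadjusted limma p of 0.0196 and a limma adjusted p of 0.870. This gene had 1 probe set.

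Cdc25c, the isoform that Polo-like kinase 1 activates in mitosis, lay at 8.85, 9.21 and 9.50 in control arrays and at 7.06 and 8.32 in MSI2-inducible arrays. Both MSI2-inducible arrays were below every control array, and they differed from each other by more than the control arrays did. The difference was -1.49 (SE 0.41), a 2.82-fold lower intensity, with an unadjusted limma p of 0.0108 and a limma adjusted p of 0.779. With MSI2-inducible replicate 1 left out it was -0.86, and with replicate 2 left out -2.12. The other Cdc25c probe set also lay lower in both MSI2-inducible arrays, at 6.54, 6.95 and 6.68 against 5.88 and 6.53. There the difference was -0.52 and the gap between the groups was small.

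Foxm1, the transcription factor that drives many G2 genes, lay at 7.13, 7.68 and 6.95 in control arrays and at 7.31 and 7.07 in MSI2-inducible arrays. The groups overlapped and the difference was -0.06 (95% limma interval -0.71 to 0.59). Its probe set with control values of 7.59, 7.13 and 6.92 gave 6.51 and 6.96 in MSI2-inducible arrays, a difference of -0.48 in which the groups also overlapped. The remaining Foxm1 probe sets differed by -0.22 and, at a low mean of 2.16, by 0.13, again with overlapping groups.

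Mitotic kinases and their partners had a median difference of -0.27 over 6 genes, of which 4 were negative. Aurkb, the kinase of the chromosomal passenger complex, lay at 9.15, 9.60 and 9.10 in control arrays and at 9.04 and 8.54 in MSI2-inducible arrays. Both MSI2-inducible arrays were below every control array, replicate 1 by little. The difference was -0.49 (SE 0.25, limma adjusted p 0.911), and the other Aurkb probe set, in which the groups overlapped, differed by -0.16. The difference at the brightest probe set was -0.74 without MSI2-inducible replicate 1 and -0.24 without replicate 2. Birc5, the survivin subunit of the same complex, differed by -0.25 with overlapping groups.

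Plk1, the Polo-like kinase that acts from mitotic entry to cytokinesis, lay at 7.46, 8.30 and 7.26 in control arrays and at 7.50 and 7.26 in MSI2-inducible arrays. Control replicate 2 was above the 4 other arrays, which lay close together, and the difference of -0.30 became 0.02 without it. Aurka, the Aurora kinase of the spindle poles, lay at 8.58, 7.72 and 8.75 against 8.51 and 8.31, with control replicate 2 below the other 4. Its difference was 0.06, and -0.25 without that array. Tpx2, which activates Aurora A on the spindle, differed by 0.09, and by -0.52 at its second probe set, with overlapping groups in both. Tacc3, which Aurora A recruits to spindle microtubules, differed by -0.37, and its 2 other probe sets by -0.70 and -0.45, with both MSI2-inducible arrays below every control array in each of these 2.

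Genes of the spindle checkpoint and of the APC/C had a median difference of -0.05 over 6 genes. Ttk, the Mps1 kinase that starts checkpoint signalling, lay at 8.67, 7.46 and 8.26 in control arrays and at 8.92 and 8.43 in MSI2-inducible arrays. Control replicate 2 was far below the rest and control replicate 1 lay between the MSI2-inducible arrays. The difference was 0.54 (SE 0.38, limma adjusted p 0.922), and it was 0.21 without control replicate 2 and 0.30 without MSI2-inducible replicate 1. A dimmer Ttk probe set lay at 6.10, 5.41 and 5.97 against 6.26 and 6.98, higher in both MSI2-inducible arrays, with a difference of 0.80 and an unadjusted limma p of 0.0484 among all probe sets.

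Bub1, a checkpoint kinase of the kinetochore, differed by -0.03 (95% limma interval -0.55 to 0.48) at its brightest probe set, with control values of 8.66, 8.17 and 8.52 and MSI2-inducible values of 8.34 and 8.50. A second Bub1 probe set lay at 6.73, 6.42 and 7.15 in control arrays and at 5.44 and 5.50 in MSI2-inducible arrays. There both MSI2-inducible arrays were well below every control array, a difference of -1.29 with an unadjusted limma p of 0.00259. This was the smallest p of the 74 probe sets of the members, and its limma adjusted p over all named probe sets was 0.546.

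Bub1b, which encodes the checkpoint protein BubR1, differed by -0.11 at its brightest probe set and Mad2l1, the Mad2 subunit that inhibits the APC/C, by 0.18, both with overlapping groups. Other Bub1b probe sets differed by 0.26, with overlapping groups, and by -0.16, with both MSI2-inducible arrays below every control array. Cdc20, the APC/C activator that the checkpoint restrains, differed by -0.08 at its brightest probe set. A dimmer Cdc20 probe set lay at 8.92, 9.05 and 8.25 against 7.62 and 8.31, a difference of -0.77 in which MSI2-inducible replicate 2 lay just above control replicate 3. Ube2c, the ubiquitin-conjugating enzyme of the APC/C, differed by -0.24 with overlapping groups.

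For centromere and kinetochore genes the median difference was 0.17, and 4 of 5 differences were positive. Cenpa, the histone H3 variant that marks centromeres, lay at 8.59, 8.35 and 8.56 in control arrays and at 8.71 and 9.14 in MSI2-inducible arrays, a difference of 0.43 (SE 0.21, limma adjusted p 0.911) that was 0.64 without MSI2-inducible replicate 1 and 0.21 without replicate 2. Nuf2, a subunit of the microtubule-binding Ndc80 complex, lay at 8.43, 8.46 and 8.38 against 8.85 and 8.69, a difference of 0.35 (SE 0.16, limma adjusted p 0.911). Cenpe, a kinetochore motor, lay at 10.03, 10.03 and 10.05 against 10.11 and 10.31, a difference of 0.17.

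For these 3 genes both MSI2-inducible arrays were above every control array, and none passed the test. Other probe sets of Cenpa and Cenpe went the other way, as did those of Cenpf. Cenpe at its second probe set lay at 8.61, 8.35 and 8.48 in control arrays and at 8.02 and 8.10 in MSI2-inducible arrays, which were both lower, and the difference was -0.42. Cenpa at its 2 other probe sets differed by -0.05 and -0.44. The one with -0.44 had a mean of 5.20, under 5.57, the median of all log2 values. Nuf2 had 1 probe set. Cenpf, a large kinetochore protein of G2 and mitosis, differed by 0.06, and Ndc80, the subunit that contacts microtubules, by -0.00079, both with overlapping groups. A second Cenpf probe set lay at 9.50, 9.34 and 9.23 in control arrays and at 8.74 and 9.20 in MSI2-inducible arrays, just below every control array for replicate 2, with a difference of -0.39. The remaining Cenpf probe set differed by -0.05 at a mean of 3.56, also under that median.

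Spindle motors and microtubule binders had a median difference of -0.0040 over 5 genes. Kif2c, a motor that takes microtubules apart at the centromere, lay at 8.59, 9.31 and 8.52 in control arrays and at 8.39 and 7.91 in MSI2-inducible arrays. Both MSI2-inducible arrays were below every control array, although replicate 1 was closer to control replicates 1 and 3 than those were to control replicate 2. The difference was -0.66 (SE 0.31, limma adjusted p 0.911), or -0.41 without control replicate 2 and also without MSI2-inducible replicate 2. All 3 other Kif2c probe sets were negative too, from -0.54 to -0.31. The one with -0.42 had a mean of 4.71, under the median of all log2 values, and the groups overlapped there and in the one with -0.31. Kif11, the motor that pushes spindle poles apart, differed by -0.09 and its 2 other probe sets by -0.35 and -0.29.

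Nusap1, which bundles microtubules near chromosomes, differed by -0.0040 at its brightest probe set. Its other probe set lay at 7.07, 6.38 and 6.88 against 7.21 and 7.67. Both MSI2-inducible arrays were higher, and the difference was 0.67. Ckap2, a microtubule-associated protein of the spindle, lay at 8.43, 7.31 and 7.89 against 7.64 and 8.56, and Hmmr, which helps to position the spindle, at 8.30, 7.11 and 7.86 against 8.84 and 7.53. At these brightest probe sets the arrays within each group were far apart and control replicate 2 was the lowest of the 5. The MSI2-inducible arrays took opposite places in the 2 genes there. Differences were 0.23 for Ckap2 and 0.43 for Hmmr, with 95% limma intervals from -0.80 to 1.25 and from -0.79 to 1.65. At its other probe sets Hmmr differed by 0.67, 0.21, 0.06 and -0.22, with overlapping groups in each. MSI2-inducible replicate 2 was above replicate 1, as for Ckap2, in those with 0.67, 0.06 and -0.22.

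For the central spindle and cytokinesis the median difference was -0.28, and 4 of 5 differences were negative. Kif23, the MKLP1 motor subunit of the centralspindlin complex, lay at 9.77, 10.06 and 9.90 in control arrays and at 9.26 and 9.25 in MSI2-inducible arrays. Both MSI2-inducible arrays were below every control array and almost equal. The difference was -0.66 (SE 0.17), a 1.58-fold lower intensity, with an unadjusted limma p of 0.00961 and a limma adjusted p of 0.750. A second Kif23 probe set lay at 9.81, 8.84 and 9.84 against 9.12 and 9.64, where the groups overlapped and the difference was -0.12. With the mean of its 3 probe sets the Kif23 difference was -0.36.

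Kif20a, the MKLP2 motor that carries the chromosomal passenger complex to the central spindle, lay at 10.74, 11.53 and 10.92 in control arrays and at 10.71 and 10.51 in MSI2-inducible arrays. MSI2-inducible replicate 1 lay only just below control replicate 1, and the difference was -0.45 (SE 0.28, limma adjusted p 0.914), or -0.22 without control replicate 2. Ect2, the exchange factor that activates RhoA at the division site, differed by -0.26. Anln, the anillin scaffold of the contractile ring, lay at 8.04, 7.48 and 7.93 against 7.53 and 7.54, a difference of -0.28. Its second probe set differed by 0.41. Prc1, which crosslinks microtubules of the central spindle, differed by 0.12 at both of its probe sets.

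**Figure D2:**
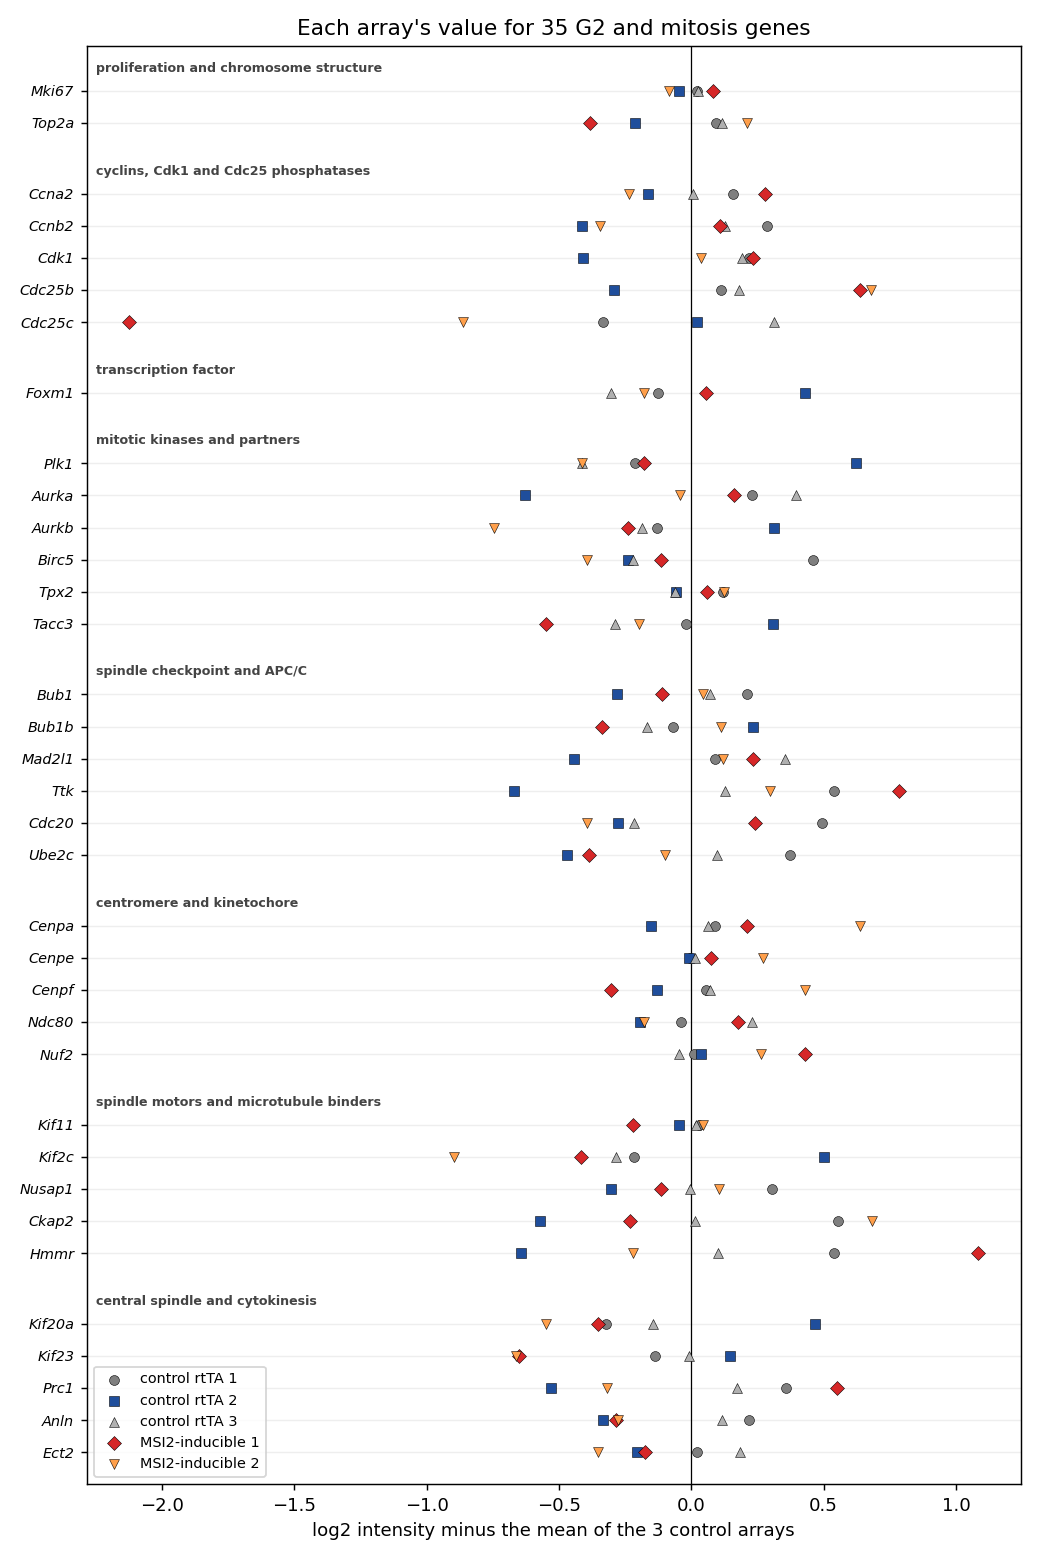
Value of each of the 5 arrays for 35 genes, as log2 intensity minus the mean of the 3 control arrays, grouped by role. Squares mark control rtTA replicate 2, which is the lowest of the 5 arrays for 16 genes, such as Ttk and Aurka, and the highest for 8, such as Plk1 and Kif20a.

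Within the control group, replicate 2 stood apart for these genes, and its distance from the others was larger there than over all genes. It lay below both other control arrays for 24 of 35 genes (32.7% of all genes did) and above both for 9 (39.4% of all genes). The median size of its distance from the mean of control replicates 1 and 3 was 0.44 over the 35 genes and 0.24 over all genes. For 26 of 35 genes (74.3%) that distance was larger than the difference between the groups, as it was for 59.7% of all genes. Of all 5 arrays it was the lowest for 16 genes (45.7%, against 20.8% of all genes), whereas control replicate 1 was the lowest for 0 genes (15.8% of all genes).

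Control replicate 2 was the lowest array for Ccnb2, Cdk1, Cdc25b, Aurka, Bub1, Mad2l1, Ttk, Ube2c, Cenpa, Cenpe, Ndc80, Nusap1, Ckap2, Hmmr, Prc1 and Anln. It was the highest for Foxm1, Plk1, Aurkb, Tacc3, Bub1b, Kif2c, Kif20a and Kif23. Both sets held kinases, checkpoint genes, motors and cytokinesis genes, so neither was limited to 1 role. The RNA quality measure, the 3′ minus 5′ log2 signal of Gapdh control probe sets, was 2.60 in control replicate 2, 2.14 and 2.40 in control replicates 1 and 3, and 2.22 in both MSI2-inducible arrays. The same measure of Actb, at -0.15 in both control replicates 1 and 2, did not set that array apart. Their part in the pattern was not tested.

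**Figure D3:**
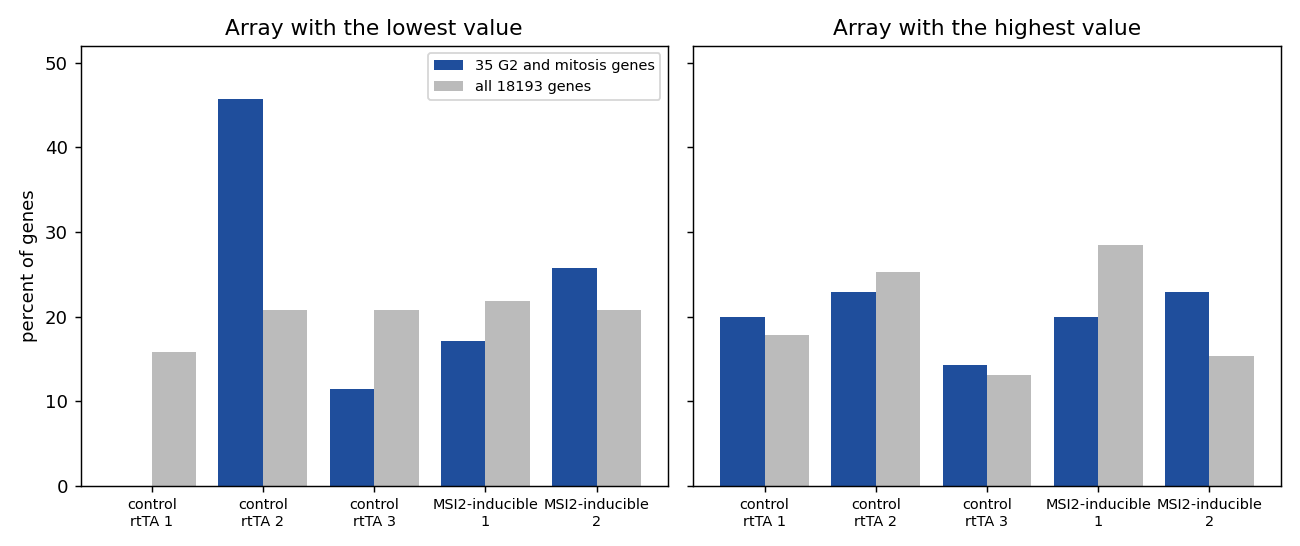
Percent of genes for which each array held the lowest (left) or the highest (right) of the 5 values, for 35 G2 and mitosis genes (blue) and all 18193 genes (grey). Control rtTA replicate 2 was the lowest for 45.7% of the 35 genes against 20.8% of all genes, and control rtTA replicate 1 for 0.

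Probe sets of the same gene often disagreed. The 35 genes had 74 probe sets, of which 9 had a mean under 5.57, the median of all log2 values, and 22 genes had more than 1. In 11 of these 22 genes the differences between the groups took both signs, and in 9 of the 21 genes with several probe sets over that median they still did. Control replicate 2 lay above both other control arrays in a probe set and below both in another probe set of the same gene for 6 of those 21 genes, namely Aurkb, Bub1b, Cdc20, Hmmr, Kif23 and Kif2c. For Kif23 its distance from the mean of the other controls was 0.22 at the brightest probe set and -0.98 at the second. For Bub1b the corresponding values were 0.35 and -0.44, and for Kif2c 0.75 and -0.57.

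With every named probe set tested on its own, 6 of the 74 probe sets had an unadjusted limma p under 0.05. The 2 higher ones belonged to Cdc25b and Ttk (2.70%, against 2.91% of the 34945 named probe sets). The 4 lower ones belonged to Bub1, Cdc25c, Kif23 and Kif2c (5.41%, against 2.81%). Genes whose probe sets all took 1 sign were Cdc25c, Aurkb, Tacc3, Bub1, Cdc20, Kif11, Kif2c and Kif23, all negative, and Aurka, Ttk and Prc1, all positive. For Aurka, Kif2c and Kif23 these include a probe set with a mean under 5.57.

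**Figure D4:**
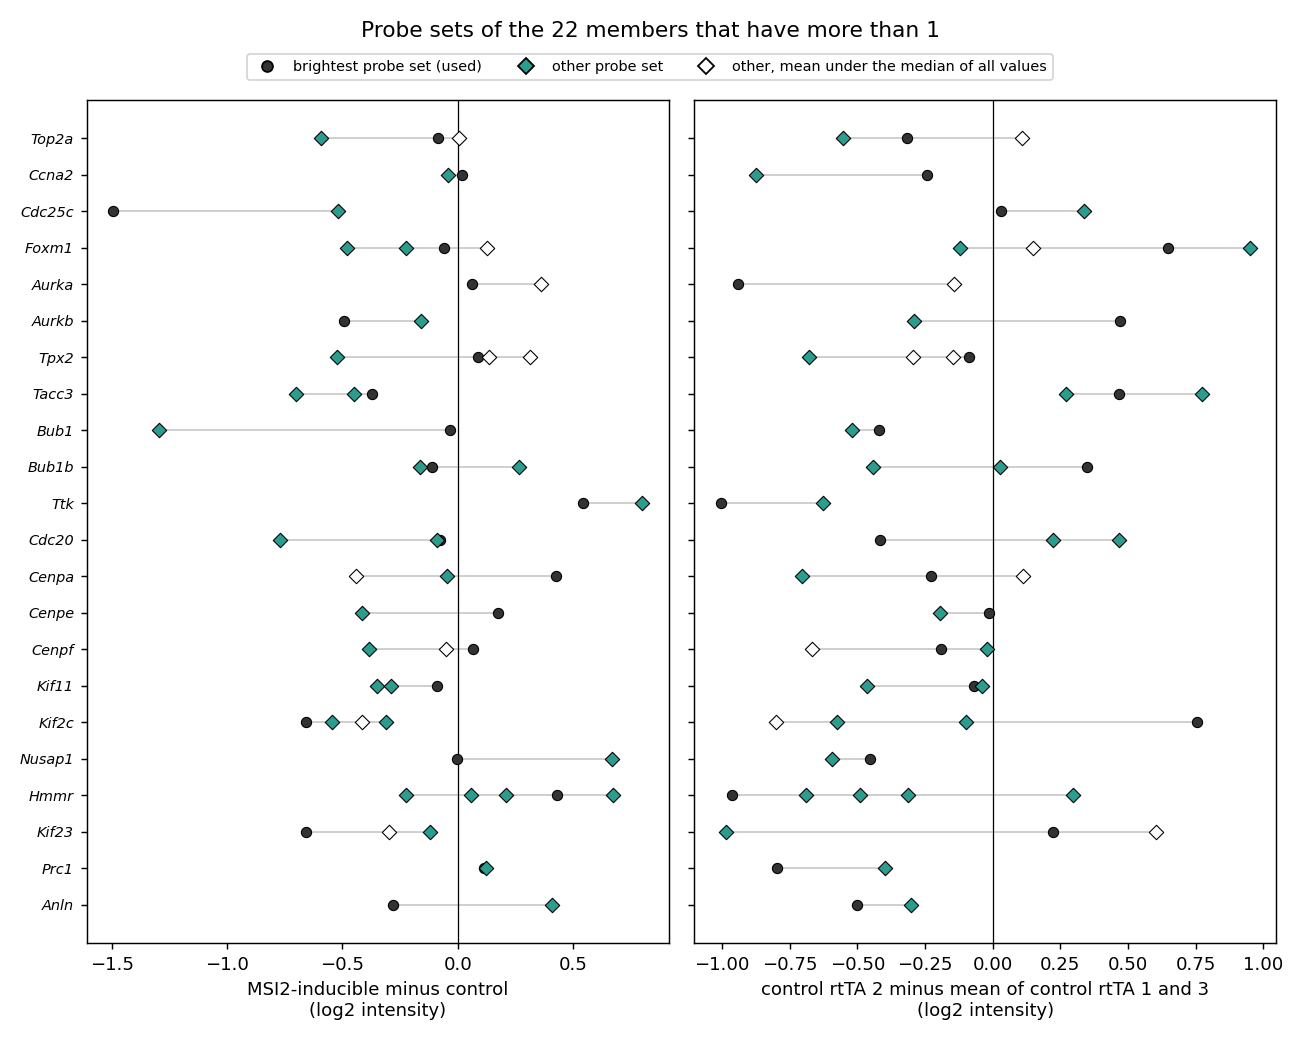
Probe sets of the 22 genes with more than 1, as the difference between the groups (left) and as control rtTA replicate 2 minus the mean of control rtTA replicates 1 and 3 (right), in log2 intensity. Circles are the brightest probe sets and diamonds the others, white where the mean lay under 5.57. Lines that cross 0, as for Cenpe and Anln on the left and for Kif23 and Kif2c on the right, mark probe sets of opposite sign.

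Other genes of mitosis gave no call either. Of 123 further genes in 6 lists, 0 passed the limma test, and the median difference was -0.03. At an unadjusted limma p under 0.05, 5 were higher (4.07%, against 2.87% of all genes) and 3 lower (2.44%, against 2.77%). Arrays did not overlap for 14 as higher (11.4%, against 9.27% of all genes) and 11 as lower (8.94%, against 9.39%). These shares lie near those of all genes.

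Condensin and cohesin genes, which shape and tie sister chromatids, had a median of -0.06 over 20 genes. The condensin II subunit Ncapd3 lay at 8.61, 8.50 and 8.73 in control arrays and at 9.16 and 8.97 in MSI2-inducible arrays. The cohesin regulator Pds5b lay at 9.38, 9.27 and 9.39 against 8.94 and 8.90. Each was shifted in both MSI2-inducible arrays, by 0.46 and -0.43, with a limma adjusted p of 0.883 for both.

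Further kinetochore and checkpoint genes had a median of -0.04 over 33 genes. Zwilch, of the complex that brings checkpoint proteins and dynein to kinetochores, differed by 0.34, and the Mis12 complex subunit Pmf1 by -0.72 (limma adjusted p 0.912 and 0.870). The APC/C and its regulators had a median of 0.06 over 15 genes. Its subunits Cdc23 and Cdc27 differed in opposite directions, by 1.10 and -0.37 (limma adjusted p 0.870 and 0.911). Cdc23 lay at 9.06, 8.09 and 8.71 in control arrays and at 10.18 and 9.25 in MSI2-inducible arrays, so it was higher in both but with a wide spread.

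Other Cdk1 regulators had a median of -0.20 over 9 genes, and Mastl, the Greatwall kinase that protects Cdk1 substrates from dephosphorylation, differed by -0.56 (limma adjusted p 0.883). Spindle, centrosome and cytokinesis genes outside the members had a median of 0.04 over 30 genes. The minus-end motor Kifc1 lay at 6.85, 6.08 and 6.73 in control arrays and at 7.21 and 7.56 in MSI2-inducible arrays, a difference of 0.83 (limma adjusted p 0.870). Ckap2l, a spindle protein related to Ckap2, differed by -0.41 (limma adjusted p 0.911).

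Factors that bind the CCAAT and CHR elements, with their partners, had a median of -0.16 over 16 genes. Nfya, the NF-Y subunit that reads CCAAT, lay at 11.23, 11.15 and 10.95 in control arrays and at 11.44 and 11.78 in MSI2-inducible arrays, a difference of 0.50 (limma adjusted p 0.883). Lin54, the MuvB subunit that reads the CHR, differed by -0.40 (limma adjusted p 0.911). Neither passed the test.

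S phase genes, which are expressed earlier in the same cycle, had a median difference of 0.07 over 29 genes, with 0 at an unadjusted limma p under 0.05. Arrays did not overlap for 3 as higher (10.3%, against 9.27% of all genes) and 1 as lower (3.45%, against 9.39%). Mcm10, which helps to start replication forks, differed by 0.50 and the thymidylate synthase Tyms by -0.56 (limma adjusted p 0.911 and 0.894). The median over the S phase list was lowest in control replicate 2 (-0.08), as it was over the G2 and mitosis genes (-0.19).

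By their list medians, mature neutrophil and erythroid markers were higher in MSI2-inducible replicate 1 than in the other arrays, though not every marker was. Medians against the control mean were 1.89 and -0.80 in MSI2-inducible replicates 1 and 2 for 12 mature neutrophil markers, of which 11 had a positive difference, and 1.37 and 0.26 for 13 erythroid markers, of which 11 did. The mean log2 level of the neutrophil list ranged from 8.27 to 9.08 in control arrays and from 8.08 to 10.75 in MSI2-inducible arrays, and that of the erythroid list from 6.87 to 7.51 against 7.43 to 8.76. Ltf, of neutrophil granules, lay at 10.75, 9.60 and 10.80 in control arrays against 12.86 and 9.13. Over the same arrays the median of the G2 and mitosis genes was 0.09, -0.19 and 0.03 in control replicates 1, 2 and 3 and -0.11 and -0.10 in MSI2-inducible replicates 1 and 2. Single genes went both ways in these arrays: 19 of 35 lay on the same side of the control mean in both MSI2-inducible arrays.

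The stem and progenitor markers Kit (8.80 to 9.66) and Cd34 (10.20 to 11.00) lay above 5.57, the median of all log2 values, in every array. Slamf1 of the same list lay at 7.36, 7.99 and 7.66 in control arrays. Both MSI2-inducible arrays were lower, at 5.57 and 7.22, a difference of -1.27 (limma adjusted p 0.883). The median difference of the 8 stem and progenitor markers with a value was -0.07. Their medians against the control mean were -0.36 and 0.27 in MSI2-inducible replicates 1 and 2, and from -0.10 to 0.08 in control arrays. Ly6a, which encodes Sca1, was not analysed here. The T cell genes Cd3e (2.22 to 2.63) and Cd3g (3.68 to 4.03) lay below 5.57 in every array. The erythroid list had a median difference of 1.16 and the neutrophil list of 0.57. Of 13 erythroid markers, 4 were higher at an unadjusted limma p under 0.05, where 2.87% of all genes were. Among them, Rhag of the red cell membrane (1.42) lay at 2.35, 1.75 and 2.23 in control arrays and at 4.48 and 2.58 in MSI2-inducible arrays. All 5 values were under 5.57, and MSI2-inducible replicate 2 was only just above the control arrays. The erythroid Gata1 went the other way, at 7.61, 7.52 and 7.09 against 6.91 and 6.85, a difference of -0.53. Differences were 0.92 for Lcn2 of neutrophils, 0.39 and 0.21 for the erythroid Tfrc and Hba-a1, and 1.07 and 0.20 for the B cell Cd79a and Cd79b. For each of these genes only MSI2-inducible replicate 1 lay above every control array. Lcn2 lay at 8.83, 7.05 and 8.95 in control arrays against 11.47 and 6.94. Cd79a lay at 4.72, 4.82 and 4.64 against 6.93 and 4.68. In the same B cell list, Vpreb1 was above every control array in both MSI2-inducible arrays. It lay at 7.24, 4.60 and 8.36 against 9.03 and 8.87, a difference of 2.22 (limma adjusted p 0.911) with control arrays far apart. Over the 8 B cell markers, 5 differences were positive and 3 negative. Differences were 0.03 and 0.20 for the macrophage Csf1r and Adgre1, and -1.38 and -0.07 for the megakaryocyte Pf4 and Itga2b. In the same lists the monocyte receptor Ccr2 lay at 6.78, 6.72 and 6.38 in control arrays and at 8.50 and 8.09 in MSI2-inducible arrays, a difference of 1.67 (limma adjusted p 0.226). Itgb3, an integrin of platelets, differed by 0.80. None of these passed the limma test. Slamf1, Rhag, Gata1, Vpreb1, Ccr2 and Itgb3 were named after their values were seen. Lists of 8 B cell, 7 T and NK cell, 8 monocyte and macrophage and 7 megakaryocyte markers had median differences of 0.26, -0.03, 0.14 and -0.07. Their part in the values of the mitosis genes was not tested.

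**Figure D5:**
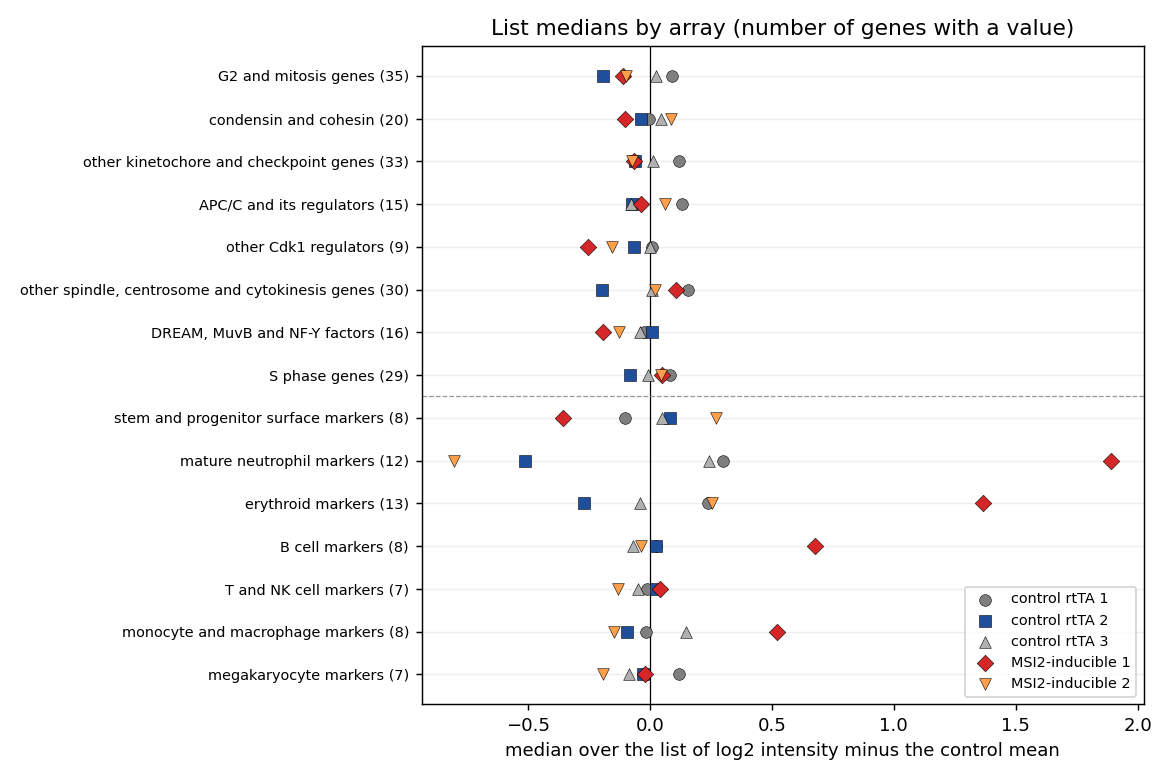
Median over each list of log2 intensity minus the control mean, for each of the 5 arrays, with cell cycle lists above the dashed line and cell marker lists below it. Numbers in brackets are genes with a value. Medians of the G2 and mitosis genes lie between -0.19 and 0.09, whereas mature neutrophil and erythroid markers reach 1.89 and 1.37 in MSI2-inducible replicate 1.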

How the data were processed

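The authors deposited 1 linear intensity per probe set and array, with array medians from 46.4 to 48.3. RMA and affy in R 2.11.0 were used, per the submitters' processing notes. The return to a linear scale and the genome build are not given in the sources used here. RNA was amplified linearly before biotin labelling, per the labels' protocols, and the number of arrays limits the precision. The log2 of these intensities was taken with no pseudocount.

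Of 45101 probe sets, 34945 outside the control probe sets had 1 symbol in the platform annotation, 932 had several and 9211 were unnamed here. Symbols were updated by Entrez ID (34741 matched) through a table of GRCm38.p6. Each gene took its brightest probe set. The test was limma 3.58.1 under R 4.3.3 (a linear model with empirical Bayes variances, two-sided p, Benjamini-Hochberg over 18193 genes, threshold 0.05). It was tried on simulated data that held only shifts larger than any member's difference here, so smaller shifts were not covered. List medians have no test.

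Members, lists and tests were chosen with earlier results of these data known. All members with a value are named; from each further cell cycle list, the gene with the largest difference in each direction among those whose arrays did not overlap; and the first genes of the cell marker lists. Alternatives covered probe sets, low values, normalization, variance model, a replicate block and each array left out.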

Additional observations from a re-analysis of the deposited data

How the results depend on the processing

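No G2 or mitosis gene passed limma's adjusted p of 0.05 under any alternative, where the lowest was 0.247 (Cdc25c without MSI2-inducible replicate 2), and the median difference moved only between -0.12 and 0.03. Over all genes, 4 passed, and 3 to 5 under the alternatives other than the replicate block (0) and left-out arrays (0 to 0; a lone MSI2-inducible array was assumed to vary like the controls). Replicate numbers are shared by 2 pairs and the labels do not say that they pair samples (correlations of deviations 0.134 and 0.0990). Members at an unadjusted p under 0.05 numbered 3, 2 to 4 under other alternatives, and 6 probe sets (2 higher, 4 lower) with every probe set on its own, a count chosen after seeing the data. Without _x_at probe sets Cdc25c differed by -0.52, Foxm1 by -0.48 and Cdc20 by -0.77. With the mean of the probe sets, the sign turned for Ccna2 (-0.012), Cenpa (-0.022), Cenpe (-0.12), Cenpf (-0.12), Nusap1 (0.33) and Anln (0.064). With the replicate block it turned for Mki67 (0.011), Bub1 (0.0024) and Ndc80 (0.11). Control replicate 3 has no partner in that block, so these differences equal those with control replicate 3 left out. With an array left out, it turned for 19 genes, over the ranges Mki67 (-0.085 to 0.081), Top2a (-0.38 to 0.21), Ccna2 (-0.24 to 0.28), Ccnb2 (-0.34 to 0.11), Cdk1 (-0.068 to 0.24), Foxm1 (-0.21 to 0.16), Plk1 (-0.50 to 0.017), Aurka (-0.25 to 0.26), Bub1 (-0.17 to 0.072), Bub1b (-0.34 to 0.11), Mad2l1 (-0.046 to 0.35), Cdc20 (-0.39 to 0.24), Cenpf (-0.30 to 0.43), Ndc80 (-0.18 to 0.18), Kif11 (-0.22 to 0.044), Nusap1 (-0.16 to 0.15), Ckap2 (-0.23 to 0.68), Hmmr (-0.22 to 1.08) and Prc1 (-0.32 to 0.55). Among genes that kept their sign with an array left out, the difference moved by over 1.5 times for Birc5 (-0.39 to -0.023), Tpx2 (0.058 to 0.15), Tacc3 (-0.55 to -0.20), Ube2c (-0.48 to -0.057), Cenpe (0.076 to 0.27), Anln (-0.45 to -0.17) and Ect2 (-0.37 to -0.17), besides Cdc25c, Aurkb, Ttk, Cenpa, Kif2c and Kif20a as given above. It moved by less for Cdc25b, Nuf2 and Kif23. In all, 13 genes kept their sign under every alternative. The cause was not tested. A difference near 0 can take either sign, and with 3 and 2 arrays the intervals span at least 0.40 to each side.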
